A study of Mus musculus with 6 samples.

Results

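A set of 31 genes of monocytes, macrophages and dendritic cells was followed in LSK cells, the lin-, Sca1+, cKit+ fraction of mouse bone marrow that holds stem and multipotent progenitor cells. The genes were listed by name, and each was read from a probe set annotated to that gene only. Of several such probe sets, that with the highest mean signal across all 6 arrays was taken. In this way 30 of the 31 genes were measured, of 30738 genes in all: 16 monocyte and macrophage genes, 8 dendritic cell genes and 6 genes that are regulators of both lineages or are found in their progenitors. The probe set of Zeb2 also names a microRNA gene, so that Zeb2 was not analysed here.

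Ash2l is a core subunit of the KMT2 complexes, which methylate lysine 4 of histone H3. The KO mice carried Ash2l exon4 fl/fl and MxCre, a recombinase driven by the interferon-inducible Mx1 promoter, and the control mice carried Ash2l exon4 fl/fl without a Cre. All mice, controls included, received 3 intraperitoneal injections to induce the recombinase, of poly(dIdC) by the labels and of pIC by the paper's methods, and marrow was taken on day 10. Total RNA of LSK cells, sorted after lineage depletion, was hybridized to MTA-1.0 arrays, with 3 KO and 3 control samples. The labels give no age and call the samples biological replicates, and the series' design text names 3 mice in each group. Whether an array stands for a single mouse or a pool is not stated in the labels or methods, and p-values measure the spread between these samples. Values are log2 signals, on which a difference of 1 is a 2-fold change, and a log2 fold change (log2FC) is the mean of the KO minus that of the control arrays, given with its standard error (SE) in limma. Signals of different probe sets are not on a common scale, and the number of arrays limits the precision. In sorted cells measured in bulk, fewer cells of a type and less RNA per cell cannot be told apart.

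Monocytes, macrophages and dendritic cells are mononuclear phagocytes that arise from myeloid progenitors of the bone marrow. The transcription factor PU.1, the product of Spi1, acts at the root of these lineages. The receptor of macrophage colony-stimulating factor (Csf1r) supports the monocyte and macrophage branch, while Flt3 and the factors Irf8, Batf3 and Id2 act in the dendritic branch. Plasmacytoid dendritic cells, which release type I interferon, share the factors Irf8 and Bcl11a and the expression of Dntt and Ly6d with early lymphoid progenitors. LSK cells precede these mature cells, so that most of the genes described here belong to cells outside the sort gate.

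Ash2l itself, read over the whole gene, had log2 signals of 9.65, 9.63 and 9.65 on the KO arrays and of 10.76, 10.57 and 10.23 on the control arrays, with every KO array below every control. The array medians lay between 6.02 and 6.09. The KO arrays correlated with each other at 0.992 to 0.994 across probe sets, whereas control replicate 3 correlated at 0.984 and 0.980 with the other controls and at 0.989 with KO replicate 2. Of 13 measured genes of stem and multipotent progenitor cells, 1 had a mean signal under the median of all probe sets (6.07), and Kit lay between 11.93 and 12.92 on all arrays. Of the 30 phagocyte genes 8 lay under that median, namely Cd14, C1qa, C1qb, C1qc, Vcam1, Batf3, Xcr1 and Zbtb46. Control replicates 2 and 3 stand out in many of the results, and values without them are given beside these.

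The lysozyme genes were the members furthest above the controls in KO LSK cells. The sequence before their start sites is shown because they are adjacent copies. Lyz1 and Lyz2 lie next to each other on chromosome 10, with 0 coding genes between them. RefSeq windows around the start site (GRCm38.p6, 250 bases before to 50 after) were identical over 83% of the window (83.6% of 298 aligned bases), compared with 38.7 to 57.3% of the window for 252 other pairs of member genes. Their longest common stretch of 86 bases runs from position -50 to 36. The 120 bases before the start site are printed 5′ to 3′ for Lyz1 (chr10:117292869-117292988, minus strand) and Lyz2 (chr10:117282273-117282392, minus strand), with the 111 bases that are the same at the same position in capitals (92.5%).
Lyz1: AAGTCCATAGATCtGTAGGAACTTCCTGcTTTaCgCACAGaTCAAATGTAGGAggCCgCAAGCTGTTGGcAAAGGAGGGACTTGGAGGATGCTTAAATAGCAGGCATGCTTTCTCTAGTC
Lyz2: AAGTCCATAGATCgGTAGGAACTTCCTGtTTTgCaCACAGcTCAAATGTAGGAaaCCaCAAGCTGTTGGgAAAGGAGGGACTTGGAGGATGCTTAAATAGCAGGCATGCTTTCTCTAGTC

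Lyz2, the lysozyme of macrophages and neutrophils, had log2 signals of 17.50, 17.21 and 15.97 on the KO arrays and of 13.83, 14.08 and 14.71 on the control arrays. Every KO array lay above every control, and control replicate 3 was the highest control. Lyz2 was 6.44-fold higher in the KO cells (log2FC 2.69, SE 0.42, limma adjusted p = 0.180). Lyz1, which encodes the lysozyme known from Paneth cells, read 12.16, 11.26 and 10.57 in KO and 8.98, 9.34 and 9.02 in control cells. Again the groups did not overlap, and the order of the KO arrays was that of Lyz2. Lyz1 was 4.65-fold higher (log2FC 2.22, SE 0.38, adjusted p = 0.195). Since close copies can bind each other's probes, the Lyz1 and Lyz2 probe sets may not be independent readings. Probe and transcript sequences were not compared, and the bases printed above lie before the start site.

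**Figure D1:**
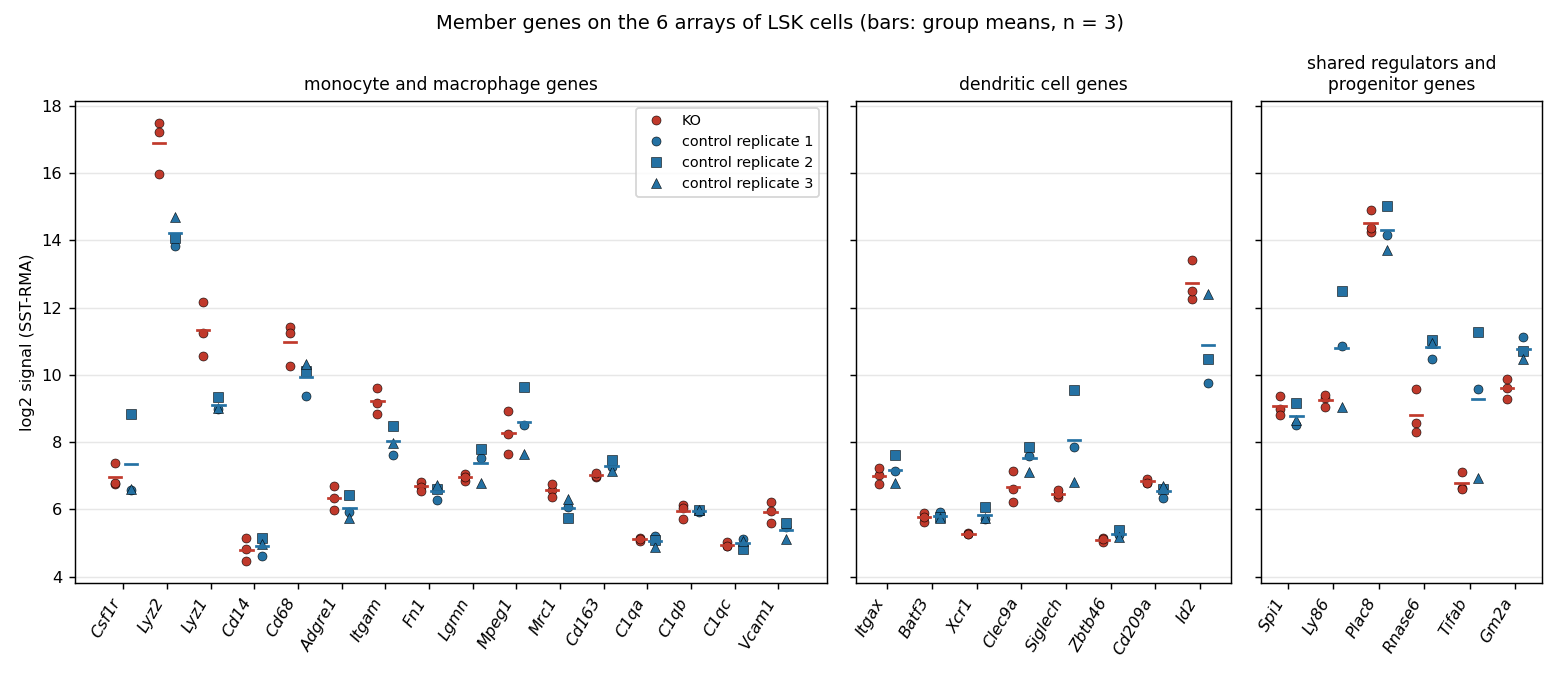
Log2 signals (y axis) of the 30 member genes (x axis) on the 3 KO arrays (red circles) and the 3 control arrays (blue, a symbol for each replicate), with group means as bars. Lyz2 and Lyz1 lay higher on every KO array, Rnase6 and Gm2a lower, and control replicate 2 (squares) stood far above the other controls for Csf1r, Siglech, Ly86 and Tifab.

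Of the 30 genes 0 passed an adjusted p under 0.05 in limma, beside 0% of all probe sets, and an equal-variance t-test on the same values passed 0 as well. Their adjusted p ranged from 0.180 for Lyz2 to 0.992 for C1qb. By a criterion of more than 2-fold together with an unadjusted p under 0.01, 3 members were higher (Lyz2, Lyz1 and Itgam), compared with 0.540% of all genes, and 2 were lower (Rnase6 and Gm2a), compared with 0.481%. The lower count was 6 without control replicate 3, beside 1.51% of all genes, and 1 without control replicate 1, beside 0.270%. At an unadjusted p under 0.05, 7 members were higher and 6 lower, beside 4.58% and 6.83% of all genes. All KO arrays lay above all controls for 6 members and below for 6, where the shares of all genes were 5.82% and 11.0%. The median log2FC over the 30 genes was -0.04, and that over all genes -0.03, with 13223 above 0 and 17515 below. Members thus lay on either side of the controls. The 16 monocyte and macrophage genes had a median of 0.11, with 9 above 0 and 7 below, the 8 dendritic cell genes one of -0.17, with 2 above and 6 below, and the 6 shared genes one of -1.35, with 2 above and 4 below.

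**Figure D2:**
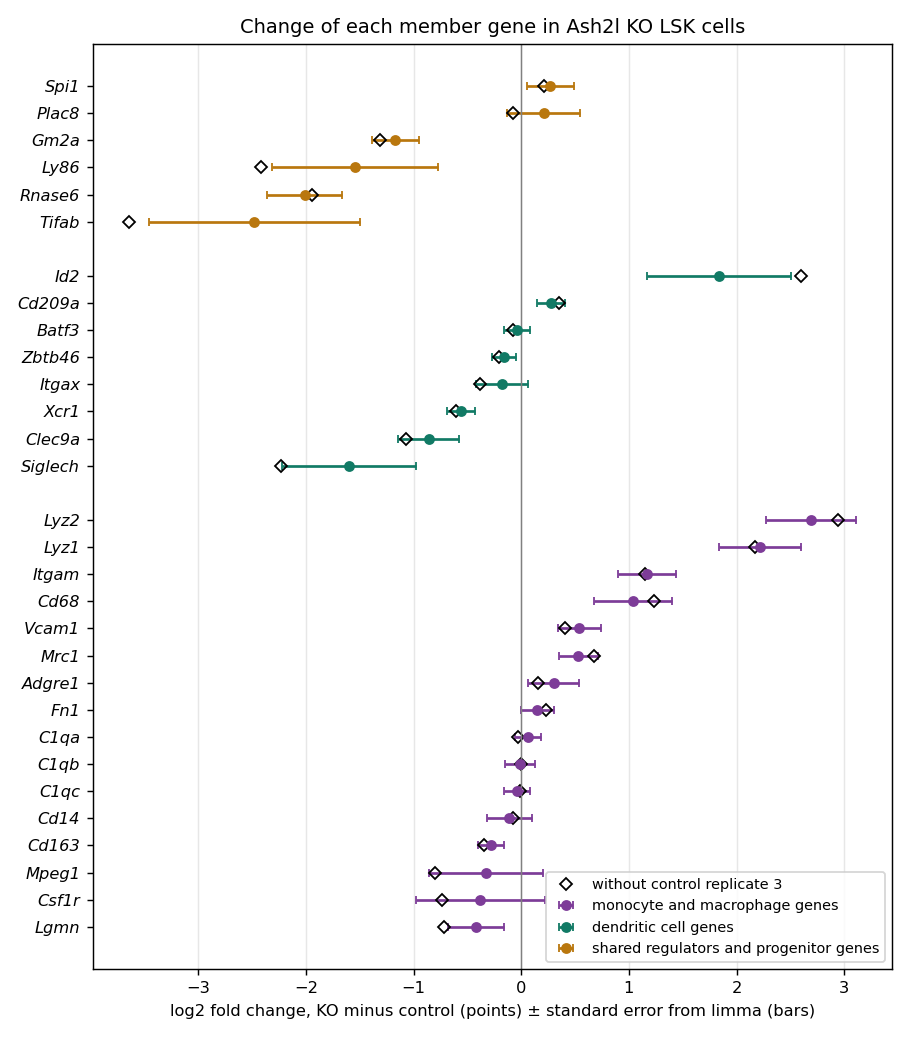
Log2 fold change between KO and control cells (x axis, filled points) with the SE from limma (bars) for each member gene (y axis), coloured by list; open diamonds give the value without control replicate 3. The lysozyme genes, Itgam and Cd68 lay highest among the macrophage genes and Siglech lowest among the dendritic cell genes, while Id2, Ly86 and Tifab moved away from 0 without control replicate 3.

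Among the surface and lysosomal genes of macrophages, Itgam and Cd68 lay higher in KO LSK cells. Itgam encodes CD11b, the integrin chain of monocytes and granulocytes whose protein is used to deplete lineage-positive cells. Its log2 signals were 9.60, 9.17 and 8.85 in KO and 7.63, 8.49 and 7.98 in control cells. No KO array reached down to the controls, and the difference was 2.26-fold (log2FC 1.17, SE 0.27, limma adjusted p = 0.263). Cd68, a glycoprotein of phagocyte lysosomes, read 11.42, 11.26 and 10.27 in KO and 9.38, 10.12 and 10.32 in control cells. The groups overlapped here, because KO replicate 3 lay just under control replicate 3, and the log2FC was 1.04 (SE 0.36, adjusted p = 0.387). For Lyz2, Lyz1, Itgam and Cd68 alike, KO replicate 1 was the highest and KO replicate 3 the lowest of the KO arrays.

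Markers of granulocytes, cells which also contain lysozyme and CD11b, had the same order of KO arrays in their list median. The 19 measured granulocyte genes had a median log2FC of 1.14 and a range from -2.15 to 7.74, with 12 above 0 and 7 below. Those below 0 were Ngp (-2.15), Camp (-1.30), Ltf (-0.67), Mpo (-0.65), Retnlg (-0.52), Prtn3 (-0.31) and Mmp9 (-0.02). At an unadjusted p under 0.05, 7 of the 19 were higher and 0 lower, beside 4.58% and 6.83% of all genes. Set against the mean of each gene across all 6 arrays, the median of the 19 was 1.00, 0.22 and 0.13 on KO arrays 1 to 3 and -0.30, -0.10 and -0.95 on control arrays 1 to 3. By the mean across all 6 arrays, only 1 of the 19 lay under the median signal. That count does not show signal in both groups, since it averages over them. Stfa2 had a mean of 5.42 on the control arrays and Ngp one of 5.70 on the KO arrays. The part of granulocyte transcripts in the higher lysozyme, Itgam and Cd68 signals was not tested.

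Mrc1 and Vcam1 lay modestly higher in the KO cells. Mrc1, the mannose receptor of resident macrophages, read 6.59, 6.74 and 6.38 in KO and 6.06, 5.73 and 6.32 in control cells. KO replicate 3 and control replicate 3 were nearly level, and the log2FC was 0.53 (SE 0.18, limma adjusted p = 0.369). Vcam1, an adhesion molecule of marrow macrophages and stroma, read 6.22, 5.96 and 5.60 in KO and 5.46, 5.58 and 5.13 in control cells. Here too the groups barely separated, with a log2FC of 0.54 (SE 0.20, adjusted p = 0.405). The 15 measured endothelial and stromal genes had a median log2FC of -0.03, with 11 under the median signal and 0 at an unadjusted p under 0.05 in either direction.

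Other genes of mature macrophages had low signals, between 4.46 and 7.79 on all arrays, and differed little. The complement genes C1qa, C1qb and C1qc, neighbours on chromosome 4 that encode the chains of C1q, had log2FC values of 0.06, -0.01 and -0.04, with signals between 4.81 and 6.12 on all arrays. Cd14, the coreceptor of lipopolysaccharide, had a log2FC of -0.11 (SE 0.21), and Adgre1, which encodes F4/80, one of 0.30 (SE 0.24). Cd163, the scavenger receptor of haemoglobin and haptoglobin, read 6.96, 6.99 and 7.07 in KO and 7.25, 7.46 and 7.15 in control cells. All KO arrays lay below the controls, by a log2FC of -0.28 (SE 0.12, adjusted p = 0.472). Fn1 (fibronectin) differed by 0.15 and Lgmn, the lysosomal protease legumain, by -0.42. Control replicates 1 and 2 lay above the KO arrays for Lgmn and control replicate 3 below them, so that the value was -0.21 without control replicate 2 and -0.72 without control replicate 3.

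A companion list of 19 measured genes of resident macrophages gave a like picture, since 13 of the 19 lay under the median signal and the median log2FC was 0.01. Beside 4.58% and 6.83% of all genes, 3 of them were higher and 1 lower at an unadjusted p under 0.05. The largest of these was Fcgr1, the high-affinity Fc receptor for IgG, at 6.35, 6.07 and 5.73 in KO and 5.21, 5.31 and 5.39 in control cells (log2FC 0.75, SE 0.17). Every KO array lay above the controls, on a low signal. Maf, a transcription factor of macrophages, had a log2FC of 0.55, Ms4a7 one of 0.40 and the apolipoprotein gene Apoe one of -0.72.

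Csf1r and Mpeg1 were decided by control replicate 2. Csf1r read 7.37, 6.76 and 6.78 in KO and 6.57, 8.85 and 6.62 in control cells, so that control replicate 2 lay above all other arrays and the remaining controls below the KO arrays. Its log2FC was -0.38 (SE 0.60, limma adjusted p = 0.875), and 0.37 without control replicate 2. Mpeg1, which encodes the pore-forming perforin-2 of macrophages, read 8.92, 8.23 and 7.66 in KO and 8.50, 9.65 and 7.66 in control cells. The groups overlapped, with a log2FC of -0.33 (SE 0.53) that turned to 0.19 without control replicate 2.

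Of 15 measured monocyte genes outside the member list, 4 were higher and 2 lower at an unadjusted p under 0.05. The shares of all genes were 4.58% and 6.83%. Of the 15, 0 passed an adjusted p under 0.05 in limma, and their median log2FC was 0.07. Control replicate 2 was the highest of all arrays for 7 of the 15 (46.7%), compared with 13.7% of all genes. S100a4, a calcium-binding protein of monocytes and other motile cells, read 14.62, 15.59 and 14.52 in KO and 11.69, 12.10 and 14.12 in control cells. Control replicate 3 came close to the KO arrays, and the log2FC was 2.27 (SE 0.64, limma adjusted p = 0.309; 3.01 and adjusted p = 0.0126 without control replicate 3). Fcgr4, an Fc receptor of patrolling monocytes, read 7.61, 7.31 and 6.65 in KO and 5.02, 5.36 and 6.15 in control cells. Again control replicate 3 was the highest control, and the log2FC was 1.68 (SE 0.35, adjusted p = 0.236; 2.00 and 0.0239 without that array). Ms4a6b and Vcan differed by 0.98 and 0.84. The 2 lower genes were Nr4a1 (-0.73) and Klf4 (-0.42), with all KO arrays below the controls. F13a1, the A subunit of factor XIII, read 11.58, 10.85 and 10.01 in KO and 7.89, 12.52 and 8.52 in control cells. Ms4a6c read 12.35, 11.62 and 11.46 in KO and 10.05, 13.43 and 10.48 in control cells. Ly6c2, which has a near-identical neighbour, read 15.06, 14.45 and 14.53 in KO and 14.28, 17.26 and 13.23 in control cells. These 3 genes, chosen after their values were seen, had their highest signal of all arrays in control replicate 2. Their KO arrays lay above the other controls.

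Of the 8 dendritic cell genes 6 had a lower mean in KO LSK cells, as did 17515 of all 30738 genes. At an unadjusted p under 0.05, 3 were lower and 1 higher, beside 6.83% and 4.58% of all genes. Siglech, the sialic acid-binding receptor of plasmacytoid dendritic cells, read 6.38, 6.47 and 6.57 in KO and 7.84, 9.56 and 6.82 in control cells. The KO arrays were close together and below all controls, of which control replicate 3 came nearest. Siglech was 3.03-fold lower (log2FC -1.60, SE 0.62, limma adjusted p = 0.425), and the value was -0.86 without control replicate 2 and -2.23 without control replicate 3.

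Clec9a and Xcr1, markers of the cross-presenting dendritic cells, which take up dead cells and present their antigens to CD8 T cells, had lower means in the KO cells, whereas the factors Batf3 and Id2 of the same cells differed by -0.04 and 1.84. Clec9a, the receptor for exposed actin of dead cells, read 6.62, 7.13 and 6.22 in KO and 7.59, 7.86 and 7.10 in control cells. KO replicate 2 just overlapped with control replicate 3, and the log2FC was -0.86 (SE 0.28, limma adjusted p = 0.360). Xcr1, their chemokine receptor, read 5.31, 5.26 and 5.26 in KO and 5.71, 6.06 and 5.75 in control cells. It lay below the median signal of all probe sets throughout, yet the groups were clearly apart, by a log2FC of -0.56 (SE 0.13, adjusted p = 0.260). Batf3, a transcription factor required for these cells, had an SE of 0.12 and overlapping groups.

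Genes that mark conventional dendritic cells as a whole differed little. Zbtb46, a transcription factor restricted to them among immune cells, had a log2FC of -0.16 (SE 0.11), with all KO arrays below the controls. Itgax, which encodes CD11c and lies next to Itgam on chromosome 7, had one of -0.18 (SE 0.24) with overlapping groups, while Itgam had one of 1.17. Cd209a, a DC-SIGN homologue of monocyte-derived dendritic cells, read 6.79, 6.91 and 6.79 in KO and 6.34, 6.62 and 6.68 in control cells. It was the only dendritic cell gene of the list besides Id2 above 0, at 0.28 (SE 0.13). A companion list of 20 conventional dendritic cell genes had a median of 0.11. In that list 2 were higher and 1 lower at an unadjusted p under 0.05, beside 4.58% and 6.83% of all genes. Named from it were Gcsam (0.74), the chemokine receptor gene Ccr7 (0.47) and Naaa (-0.40).

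Id2, an inhibitor of E proteins that is needed for cross-presenting dendritic cells and innate lymphoid cells, stood against its neighbours in the list. It read 12.26, 13.42 and 12.48 in KO and 9.76, 10.48 and 12.40 in control cells. Control replicate 3 lay within the KO arrays and the other controls far below. The log2FC was 1.84 (SE 0.67, limma adjusted p = 0.401) and 2.60 without control replicate 3 (adjusted p = 0.0252), and over the arrays left out in turn it ranged from 1.28 to 2.60. The 30 measured interferon response genes divided the arrays in the same way. Their median relative level was 0.43, 0.52 and 0.59 on the KO arrays and -1.0, -1.11 and 0.46 on control arrays 1 to 3. Beside 4.58% of all genes, 17 of them were higher at an unadjusted p under 0.05. The 8 measured megakaryocyte markers also set control replicates 1 and 2 apart. Their median relative level was 0.48, 0.39 and 0.2 on the KO arrays and -0.79, -0.73 and 0.63 on control arrays 1 to 3. The part of either list in the Id2 signal was not tested.

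Outside the member list, 18 plasmacytoid dendritic cell genes were measured, some of which lymphoid progenitors also express. Of the 18, 4 were lower and 2 higher at an unadjusted p under 0.05, beside 6.83% and 4.58% of all genes. In limma 0 of the 18 passed an adjusted p under 0.05. Their median log2FC was -0.51, with 13 below 0 and 5 above. Dntt, the terminal transferase, read 9.73, 9.86 and 10.16 in KO and 16.83, 16.18 and 14.14 in control cells. The groups lay far apart, with a log2FC of -5.80 (SE 0.64, limma adjusted p = 0.151). Ly6d followed at -2.35 and Cox6a2 at -1.97, whereas Irf7, an interferon-induced regulator of interferon genes, was at 1.18. The list's median relative level was -0.22, -0.18 and -0.19 on the KO arrays and 0.39, 0.73 and -0.12 on control arrays 1 to 3. B cell markers also had control replicate 3 as the lowest control, but control replicate 1 as the highest. They stood at 2.17, 1.71 and -1.85 on control arrays 1 to 3 and at -1.02, -0.49 and -0.41 on the KO arrays. Control replicate 3 thus lay below the KO arrays for B cell markers and just above them for the plasmacytoid list. The part of B cell transcripts in the lower dendritic cell signals was not tested.

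**Figure D3:**
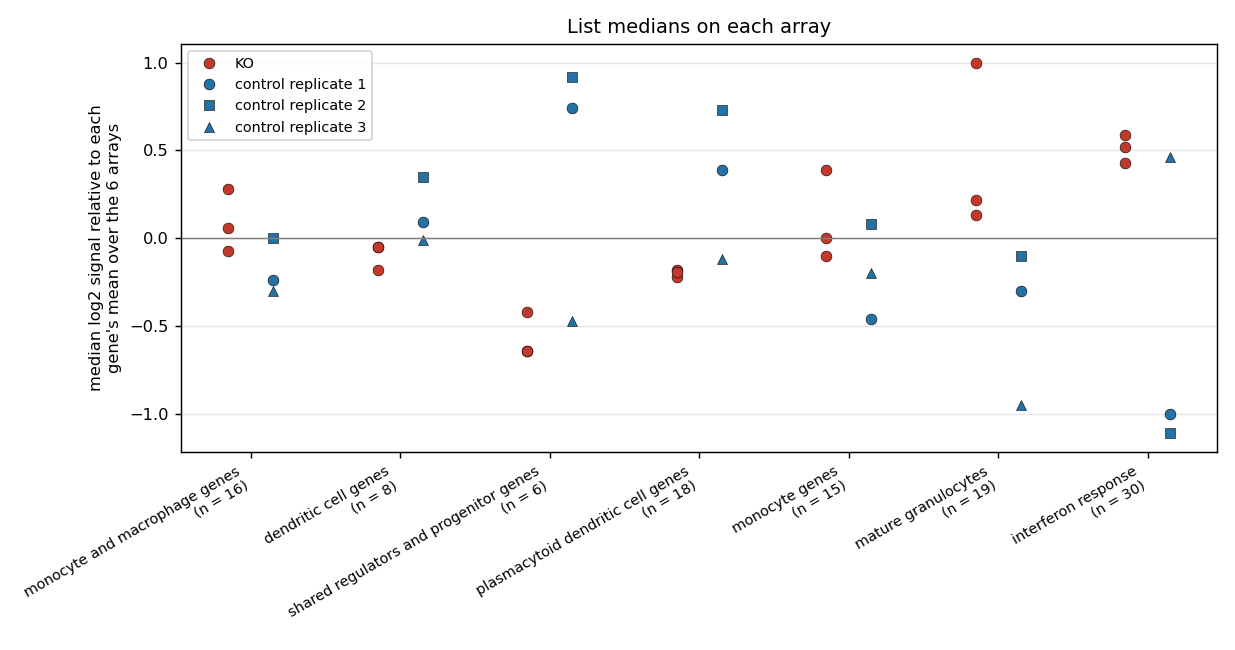
Median log2 signal minus the mean of each gene across all 6 arrays (y axis) for the 3 lists of member genes, 2 companion lists and 2 marker lists (x axis, with the number of genes), with the KO arrays in red and the controls in blue. Control replicate 3 (triangles) lay with the KO arrays for the shared genes and the interferon response, and near them for the plasmacytoid dendritic cell genes.

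The shared regulators and progenitor genes held the largest decreases, those of Tifab and Rnase6. Rnase6, a ribonuclease of myeloid cells, read 8.56, 9.59 and 8.29 in KO and 10.47, 11.04 and 10.96 in control cells. All controls, including control replicate 3, lay close together and above the KO arrays. Rnase6 was 4.03-fold lower (log2FC -2.01, SE 0.35, limma adjusted p = 0.198), and leaving out an array moved this between -2.40 and -1.75. Gm2a, the lysosomal activator of ganglioside GM2 breakdown, read 9.61, 9.29 and 9.89 in KO and 11.12, 10.70 and 10.48 in control cells. Again no array overlapped, and Gm2a was 2.25-fold lower (log2FC -1.17, SE 0.22, adjusted p = 0.213; 0.0353 without control replicate 3).

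Ly86 and Tifab differed between the controls more than between the groups. Ly86 encodes MD-1, the partner of the toll-like protein RP105, and read 9.31, 9.41 and 9.03 in KO and 10.85, 12.48 and 9.03 in control cells. Tifab, a relative of the adaptor TIFA, read 7.12, 6.64 and 6.62 in KO and 9.59, 11.28 and 6.94 in control cells. For both genes control replicate 2 was the highest array and control replicate 3 lay at the level of the KO arrays. The log2FC of Ly86 was -1.54 (SE 0.77, limma adjusted p = 0.537), -2.42 without control replicate 3 (adjusted p = 0.0462) and -0.69 without control replicate 2. That of Tifab was -2.48 (SE 0.98, adjusted p = 0.435), -3.64 without control replicate 3 (adjusted p = 0.0179) and -1.47 without control replicate 2.

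Spi1, the gene of PU.1, did not share these decreases, at 9.37, 8.99 and 8.81 in KO and 8.52, 9.17 and 8.66 in control cells. The groups overlapped, with a log2FC of 0.27 (SE 0.22, limma adjusted p = 0.716). Plac8, a gene of myeloid progenitors and plasmacytoid dendritic cells with a high signal here, read 14.90, 14.24 and 14.38 in KO and 14.15, 15.02 and 13.72 in control cells. It overlapped as well, and its log2FC of 0.21 turned to -0.08 without control replicate 3.

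Other transcription factors of these lineages lay lower where they passed an unadjusted p under 0.05. Of 19 measured, 7 were lower and 0 higher at that level, beside 6.83% and 4.58% of all genes. The median log2FC of the 19 was -0.10, with 8 above 0. Irf8, which directs progenitors to monocytes and dendritic cells, read 7.56, 7.57 and 7.41 in KO and 9.14, 10.74 and 7.98 in control cells. The controls spread widely above the KO arrays, and the log2FC was -1.77 (SE 0.62, limma adjusted p = 0.389; -1.05 without control replicate 2, -2.43 and adjusted p = 0.0411 without control replicate 3). Irf4, a factor of dendritic and lymphoid cells, read 6.62, 7.33 and 7.13 in KO and 9.28, 8.97 and 7.40 in control cells, a log2FC of -1.52. Bcl11a, required for plasmacytoid dendritic cells and B cells, read 9.90, 10.10 and 10.43 in KO and 11.97, 11.78 and 10.82 in control cells, a log2FC of -1.38. In both cases control replicate 3 was the lowest control and still above the KO arrays. Tcf12, an E protein, differed by -0.56.

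Of the growth factors and receptors of the lineage, Flt3, the receptor that drives dendritic cell and lymphoid development, was lower in the KO cells, at 10.98, 10.89 and 11.01 in KO and 12.80, 11.84 and 11.90 in control cells. The KO arrays were almost level and all below the controls, by a log2FC of -1.22 (SE 0.26, limma adjusted p = 0.244). Its ligand gene Flt3l lay the other way, at 9.80, 9.88 and 9.85 in KO and 8.82, 8.89 and 9.71 in control cells. Control replicate 3 was nearly at the KO level, and the log2FC was 0.70 (SE 0.24, adjusted p = 0.372; 0.99 and adjusted p = 0.0133 without control replicate 3). Csf1, the ligand of Csf1r, had a log2FC of 0.58. Of 10 genes measured in this list, 1 was lower and 2 were higher at an unadjusted p under 0.05. The shares of all genes were 6.83% and 4.58%.

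Lysosomal and phagocytic genes, a class to which Cd68, Lgmn and Gm2a belong, did not move in 1 direction. Of 20 measured outside the member list, 3 were higher and 1 lower at an unadjusted p under 0.05. The shares of all genes were 4.58% and 6.83%, and the median log2FC of the 20 was 0.01. The acid lipase gene Lipa (1.06), the cathepsin gene Ctsl (1.05) and the membrane protein gene Lamp2 (0.93) lay higher. Psap, the precursor of the saposins, which serve sphingolipid breakdown as the GM2 activator does, lay lower. It read 11.47, 11.41 and 11.26 in KO and 12.24, 12.83 and 11.49 in control cells, with no overlap and a log2FC of -0.81 (SE 0.32). The value was -0.48 without control replicate 2 and -1.15 without control replicate 3 (limma adjusted p = 0.0371).

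Since the list contrasts macrophage with dendritic cell genes, the difference of the list medians was taken on each array as a description. On levels relative to each gene's mean, the macrophage median minus the dendritic cell median was 0.33, 0.11 and 0.11 on the KO arrays and -0.33, -0.35 and -0.29 on the control arrays. Every KO array was above every control, control replicate 3 included, while the side of 0 on which a group falls is set in part by the centring. The size of the contrast depends on how the medians are taken. Every gap between a KO and a control array in these levels exceeds the value that follows. The difference of the median log2FC values was 0.28, from 0.11 for macrophage and -0.17 for dendritic cell genes. It was 0.20 without Itgam, Lyz1, Lyz2 and Cd14, which granulocytes express too and without which the macrophage median was 0.03. It was 0.48 with the shared genes counted among the dendritic cell genes, and it lay between 0.25 and 0.37 with an array left out. Lyz2, Lyz1, Itgam, Cd68, Mrc1 and Vcam1 lay furthest above 0, while the other macrophage genes lay between -0.42 and 0.30. The size of the largest changes does not enter a median. The macrophage median lies between C1qa (0.06) and Fn1 (0.15), and the dendritic cell median between Itgax (-0.18) and Zbtb46 (-0.16).

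Control replicate 2 was the highest control for 20 of the 30 members (66.7%), compared with 22.5% of all genes, and the highest of all 6 arrays for 14 (46.7%), compared with 13.7%. It was the highest control for 0 of the 13 measured genes of stem and multipotent progenitor cells. The median relative level of those 13 was -0.02, 0.06 and 0.06 on the KO arrays and -0.21, -0.69 and 0.64 on control arrays 1 to 3. Control replicate 3 lay within the range of the KO arrays for 11 members (36.7%), compared with 45.0% of all genes. Without control replicate 3 the KO arrays lay below the controls for 10 members and above for 8, where the shares of all genes were 18.4% and 19.3%, and without control replicate 2 for 7 and 10, where they were 19.5% and 8.35%. Without control replicate 3, limma passed 5 members at an adjusted p under 0.05 (Lyz2, Id2, Ly86, Tifab and Gm2a), beside 4.43% of all genes in that fit, and 0 without any other single array. Several differences that were not called moved by over 1.5 times with an array left out, namely those of Spi1 (0.12 to 0.47), Adgre1 (0.13 to 0.50), Fn1 (0.02 to 0.23), Cd209a (0.18 to 0.35), Zbtb46 (-0.21 to -0.10), Csf1 (0.35 to 0.81), Gcsam (0.49 to 1.00), Ms4a6b (0.64 to 1.27) and Lamp2 (0.51 to 1.28).

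**Figure D4:**
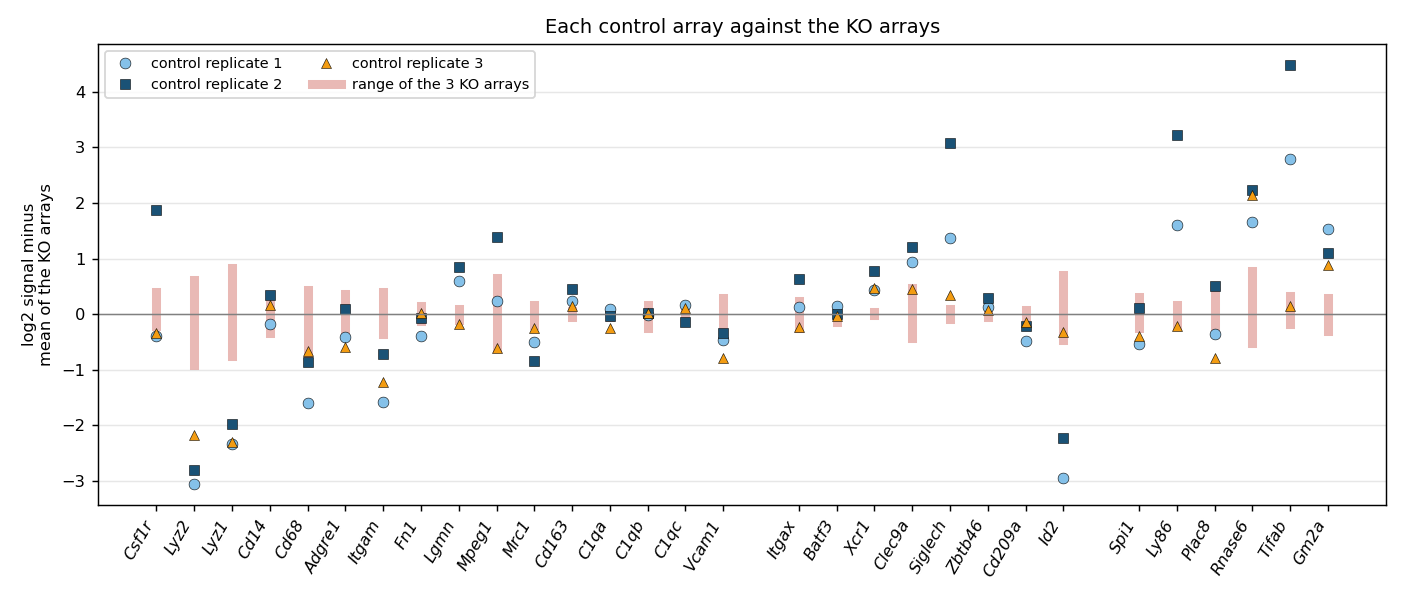
Log2 signal of each control array minus the mean of the 3 KO arrays (y axis) for the 30 member genes (x axis), with the range of the KO arrays as a red bar. All controls lay below the bar for Lyz2, Lyz1 and Itgam and above it for Rnase6 and Gm2a, whereas for Id2, Ly86 and Tifab control replicate 3 (triangles) lay in or next to the bar and the other controls far from it.

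The start-site windows of the members were searched for 3 short motifs of factors that act in these lineages, as a description of the sequences. Windows were given for 23 of the 30 members, 27 windows in all. GAGGAAGT, a motif of PU.1, was found on either strand for 1 member gene (C1qc), and for 3.69% of all genes with a window. GGAANNGAA, an element of paired ETS and IRF factors, was found for Cd209a and Cd68, and for 9.42% of all genes. GAAANNGAA, part of the interferon response element, was found for 4 members (Clec9a, Ly86, Lyz1 and Rnase6), and for 9.76% of all genes. The last motifs differ at 1 base and cannot match at the same position of a strand. Of the 4 genes with GAAANNGAA, Lyz1 lay higher in KO cells and the others lower. Rnase6 is shown because it had the largest decrease without overlap among the members. In the 120 bases before its most downstream start site (chr14:51128944-51129063, plus strand of GRCm38.p6, RefSeq), the match begins at position -46, and the capitals mark it as it reads on the opposite strand.
Rnase6: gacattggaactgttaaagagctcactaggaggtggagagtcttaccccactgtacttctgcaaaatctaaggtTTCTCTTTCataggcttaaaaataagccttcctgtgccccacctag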

How the data were processed

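LSK cells of 3 KO and 3 control samples were measured on MTA-1.0 arrays from 40 ng of total RNA each. The authors normalized the arrays with SST-RMA, a probe-level correction for GC content and signal space followed by RMA, in Affymetrix software (Expression Console and Transcriptome Analysis Console are named in the processing notes), and deposited log2 signals of 65956 probe sets, which range from 2.37 to 19.89. These values were used as they stand; 0 per-sample columns were left unused. The platform annotation named 1 gene, under 1 or several names, for 30638 and 654 probe sets, several genes for 1522 and none for 33142, and 343 names were updated. KO was compared with control by limma, the tool that the paper's methods name for these arrays, in version 3.58.1 (R 4.3.3) over all probe sets, unfiltered and without a block, with Benjamini-Hochberg adjustment; the fit was tested on simulated data. Genes changed more than 2-fold at an unadjusted p under 0.01 were counted too. The paper counts genes by more than 2-fold and a p under 0.01, without saying whether that p was adjusted. With 1 probe set per gene, 148 genes were lower and 166 higher here by limma, fewer than the paper counts. The members and the lists were chosen with earlier results of these data known, so lists carry no test. Named were all measured members, and of each companion list up to 4 genes with the largest change at an unadjusted p under 0.05. The granulocyte markers below 0, the lower monocyte genes and genes said to be chosen after their values were seen were named too. Replicate numbers of the titles did not pair the arrays (correlations of deviations 0.0358, -0.315 and -0.177). Sample descriptions carry label numbers, of which 2 occur in both groups (KO 1 with control 1, KO 3 with control 2; correlations 0.0358 and 0.133); their meaning is not stated, and a block by them was an alternative in which KO 2 and control 3 do not enter the comparison. Alternatives were other scalings, a signal filter, trend and robust priors, array weights, blocks, an equal-variance t-test, other gene lists, averaged probe sets per gene, and leaving out each array; counts of arrays that do not overlap were repeated without each array after the data were seen. Plots were made in Python 3.11.15 (matplotlib 3.10.9).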

Additional observations from a re-analysis of the deposited data

How the results depend on the processing

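With quantile normalization, median centring, trend and robust priors, array weights or averaged probe sets per gene, the counts of members and the list medians kept their direction and stayed within 1.5 times or the spread between replicates. With the replicate block, 0 members passed an adjusted p under 0.05. By more than 2-fold together with an unadjusted p under 0.01, 2 were lower and 2 higher there. The shares of all genes were 0.423% and 0.407%. The count of lower members was 5 with the label number block (1.20% of all genes), 1 with an equal-variance t-test (0.146%) and 1 to 6 with an array left out (0.267 to 1.51%). In these settings 2 to 4 members were higher, where the share of all genes ranged from 0.150 to 1.95%. From 0 to 5 passed the adjusted p, the 5 only without control replicate 3, where 4.43% of all genes passed. The median of the macrophage genes was 0.30 over the 22 members above the median signal and 0.06 to 0.28 with an array left out. That of the dendritic cell genes was -0.34 with the label number block and -0.37 with the shared genes added, and -0.30 to -0.08 with an array left out. The difference of these medians was 0.48 with the filter, with the label number block and with the shared genes added, and 0.25 to 0.37 with an array left out. The sign turned for C1qb with array weights (0.04) and the label number block (0.12). With an array left out, it turned for C1qb (-0.09 to 0.12), Csf1r (-0.77 to 0.37), Cd14 (-0.28 to 0.06), Mpeg1 (-0.80 to 0.19), C1qa (-0.03 to 0.14), C1qc (-0.13 to 0.02), Itgax (-0.38 to 0.05), Batf3 (-0.11 to 0.02) and Plac8 (-0.08 to 0.57). The cause was not tested. Signals near the median of all probe sets, as for C1qb, or well below it, as for C1qa and C1qc, limit what could be measured.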
